A study of Mus musculus with 15 samples.

Results

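The hearts of B6C3F1 mice, the cross of the inbred strains C57Bl/6 and C3H, were set against the midparent, which is the mean of both parents. An autosomal gene whose hybrid level lies off the midparent is expressed non-additively. Males have each sex chromosome from a single parent, so this reading does not carry over to X-linked and Y-linked genes. These are included in the counts of calls and also described apart. Gene expression had been measured with whole-genome Affymetrix arrays in the heart apex of 5 untreated male mice of each kind, labelled C3H/HeJ, C57BL/6J and B6C3F1/J by source. At 7 weeks each mouse, anaesthetised with 250 mg/kg tribromoethanol, had received a telemetry device in the abdomen. There was no other treatment, and the mice were 9 to 10 weeks old at collection. Each array held 50 ng of total RNA from a mouse of its own, as labelled. The comparison used all 15 arrays of the series, 5 of the hybrid and 10 of the parents. It covered the 45032 probe sets left of 45096 after 64 controls were taken out, each probe set being a group of array probes aimed at a transcript.

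Most strain differences in expression arise from sequence variants next to the gene, and each allele of a hybrid then keeps the output it has in its own strain. Such a hybrid lies midway between the parents on linear signals, not on log2 signals, where the midpoint is a geometric mean. Male B6C3F1 mice come from a C57BL/6 mother and a C3H father, so they carry the X chromosome of the first and the Y chromosome of the second. Variants in regulators encoded elsewhere, dominance and imprinting are the textbook ways in which a hybrid can leave the midpoint on an autosome.

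The 2% trimmed mean signal was 500.26 to 500.28 on each array, so all arrays had been scaled to a common level. Labelling controls, hybridisation controls, the ratios of 3 prime to 5 prime control probes and the median signal did not differ by the test between the 5 hybrid and 10 parental arrays (exact two-sided permutation p from 0.159 to 0.725, adjusted p from 0.606 to 0.725 over 5 tests). The poly-A labelling control read 8.50 to 8.89 on hybrid arrays, 8.97 to 10.48 on C3H arrays and 7.66 to 9.12 on C57Bl/6 arrays (log2), so that it lay below all C3H arrays in the hybrid. All 15 cardiomyocyte markers were above the dim level of 5.74 on the log2(signal + 16) scale, which is the 40th percentile of all probe set means. Of the lymphocyte markers, 6 of 12 were at or below it. Myh6 (+0.02 ± 0.12 log2, SE), Myh7 (+0.06 ± 0.14), Nppa (+0.12 ± 0.24), Nppb (+0.81 ± 0.35) and Actc1 (+0.03 ± 0.15), which encode myosin heavy chains, natriuretic peptides and cardiac actin, were not called off the midparent.

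A probe set was called where limma gave an adjusted p under 0.05, on log2(signal + 16) and on linear signals separately, over all 45032 probe sets. On both scales 41 probe sets were called, 23 above the midparent and 18 below it. These are 0.0511% and 0.0400% of all probe sets, and 0.0910% together, or 0.0851% and 0.0666% of the 27019 probe sets above the dim level described above. Among named genes the largest log2 rises were in Psmd6, Cd99l2 and Hsd17b7, and the largest falls in Rab6b, Slc35a5 and Neat1. Hybrid signals of the 23 ran from 130% to 245% of the linear midparent (median 153%), and those of the 18 from 9.62% to 71.6% (median 50.5%). The means over all 15 arrays of the 41 were above the dim level, which is 37.3 in signal units. The hybrid means alone were below it in 3 of them, at 11.1 in Slc35a5 and at 28.3 and 24.4 in the Rab6b probe sets, so the size of these falls is uncertain. Of them 37 belong to 34 genes with a single symbol, and the other 4 have no single gene in the annotation used. At an unadjusted p under 0.05 stood 10.3% of all probe sets on log2 and 9.93% on linear signals. The median SE of a log2 difference was 0.28 over all probe sets and 0.18 over those above the dim level, which bounds what 5 arrays a group could show.

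These counts rested heavily on single arrays. Without C3H replicate 5, 162 probe sets were called on both scales, and without B6C3F1 replicate 5 there were 64. Leaving out B6C3F1 replicate 1, 2, 3 or 4 left 15, 23, 15 and 20, and leaving out C57Bl/6 replicate 1, 3 or 4 left 22, 27 and 27. All 41 calls were among the 162 without C3H replicate 5. With each array centred on its median, 14 were called, 6 above and 8 below, and without an intensity trend in the prior variance 7 were called. Of the 37 named probe sets, 5 kept their call in each of the alternatives, 31 in all, in which they were measured. They were those of Psmd6 and Hsd17b7 (2 probe sets) above the midparent, and 1 each of the X-linked Chm and of Rab6b below it. The Chm set was measured in all 31, the Hsd17b7 sets in 30, and those of Psmd6 and Rab6b in 29. Keeping the brightest set of each gene left out the called Psmd6 set, and the brighter Psmd6 set was not called. Left out in turn, none of the 15 arrays ended the call of 9, which were these 5 and those of AU040320, Cpxm2, Gsto1 and Sh3bgrl.

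The scale decided most calls where the parents were far apart. On log2, 141 probe sets were called (0.313%), 100 above (0.222%) and 41 below (0.0910%). On linear signals 44 were called (0.0977%), 24 above (0.0533%) and 20 below (0.0444%). Centring each array changed these splits to 63 above and 31 below on log2, and to 6 above and 10 below on linear signals. Of the 77 called above the midparent on log2 alone, 57 had parents at least 4-fold apart, and their hybrid signals had a median of 111% of the linear midparent (63.7% to 186%). The 23 called below on log2 alone all had parents under 2-fold apart. Among bright probe sets, those above the dim level, 193 had parents at least 4-fold apart. Log2 called 60 of these above and 3 below (32.6%), while linear signals called 3 above and 4 below (3.63%).

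**Figure D1:**
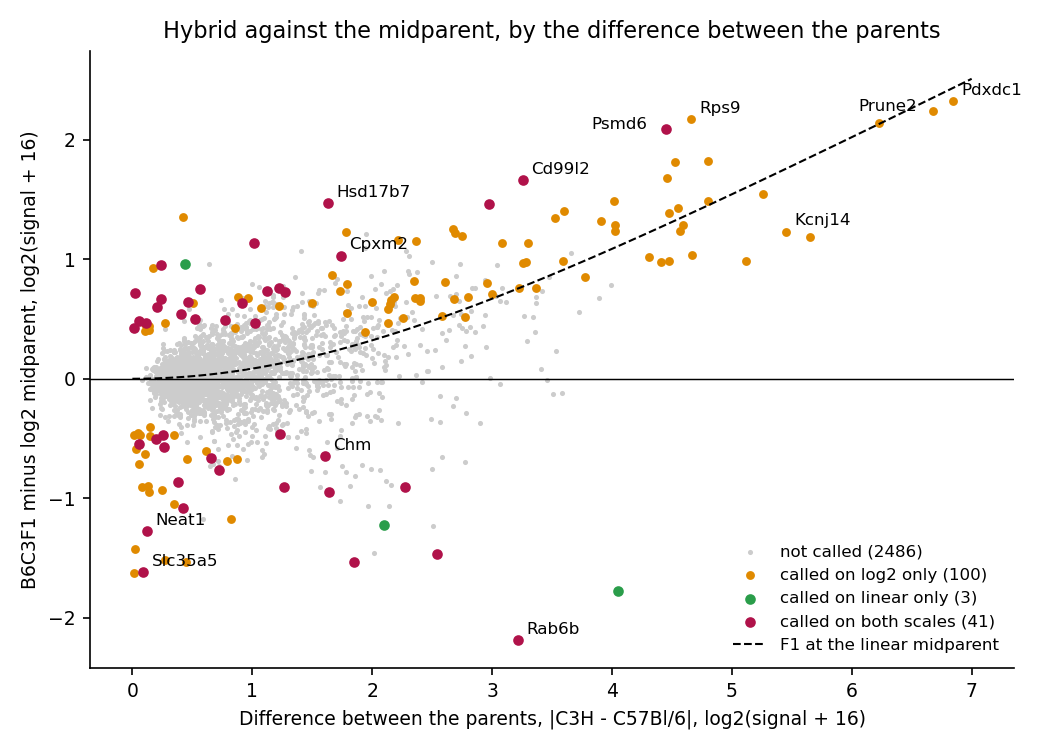
Each point is a probe set; the x axis is the absolute difference between the parental means and the y axis the hybrid minus the log2 midparent, both in log2(signal + 16). Shown are all probe sets called on either scale and all bright ones whose parental arrays do not overlap; over the whole array the parents do not overlap in 6.26% of probe sets. The 100 called on log2 alone lie on both sides of the dashed line of a hybrid at the linear midparent where the parents are far apart, while the 41 called on both scales are marked apart.

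Pdxdc1, a pyridoxal-dependent decarboxylase domain gene, gave the largest log2 difference among called probe sets. It read 1820, 1558, 1934, 1781 and 1782 in the hybrid, 3427 to 4153 in C3H and 5.48 to 28.5 in C57Bl/6. The hybrid thus lay 2.32 ± 0.13 above the log2 midparent (adjusted p = 3.12e-10) and at 92.3% of the linear midparent (difference -148 ± 146 signal units, SE, adjusted p = 0.775). A second Pdxdc1 probe set ordered the parents the other way round. It read 1543 to 2108 in C57Bl/6, 33.2 to 134 in C3H and 823 to 1254 in the hybrid, which is 106% of the linear midparent (+63.5 ± 87.5). Prune2 gave 1797 to 2542 in the hybrid, 3928 to 5127 in C57Bl/6 and 2.25 to 73.1 in C3H, a log2 difference of +2.24 ± 0.22 at 92.8% of the linear midparent. Rps9, a ribosomal protein whose probe set is of the type that can match several transcripts, was called on log2 (+2.17 ± 0.19) and read 177% of the linear midparent (adjusted p = 0.101 there).

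The class I histocompatibility gene H2-D1, whose alleles differ between these strains, also had probe sets of opposite parental order. One set, higher in C3H, read 2213 to 3779 in C3H, 46.8 to 114 in C57Bl/6 and 1126 to 1580 in the hybrid, which was 101% of the linear midparent (+10.3 ± 170 signal units). Another, higher in C57Bl/6, read 5168 to 7862 in C57Bl/6, 67 to 188 in C3H and 1523 to 3018 in the hybrid, at 63.7% (-1139 ± 311, adjusted p = 0.17). Both were called above the log2 midparent, by 1.49 ± 0.15 and 1.18 ± 0.18. A further H2-D1 set with higher C57Bl/6 values (mean 4543 against 204 in C3H) was also called on log2 alone, with a hybrid mean of 1911 at 80.5% of the linear midparent. Class I genes are close copies, so these probe sets may also read one another. The base sequences of the probes were not used here, and how far strain variants under the probes take part in such differences was not tested.

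The position of the hybrid mean was read where the parents were at least 4-fold apart and their arrays did not overlap. For the 150 such autosomal sets, the median on linear signals was 0.5 of the way from lower to higher parent (quartiles 0.39 and 0.62). On log2 the same hybrid arrays lay at 0.72 (quartiles 0.64 and 0.8). The 5 hybrid arrays taken singly gave 0.45 to 0.5 and 0.7 to 0.74. With the X-linked probe sets and those without a single gene, 193 in all, the medians were 0.47 and 0.71. These 193 were chosen by non-overlap and not by brightness, unlike the 193 bright probe sets above. The potassium channel gene Kcnj14 shows a hybrid on either side of the 2 midpoints. It read 789 to 1006 in the hybrid, 1949 to 2866 in C3H and 13.2 to 66.4 in C57Bl/6, so that it stood 1.23 ± 0.17 above the log2 midparent (adjusted p = 0.000432) and at 68.5% of the linear one (adjusted p = 0.179).

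On the sex chromosomes most hybrid values lay by the parent that gave the chromosome. Of the 1127 X-linked probe sets, 5 were called on both scales (0.444%), and of the 20 Y-linked ones 1 was (5%). The next shares are of probe sets whose parents were at least 2-fold apart, with no overlap of the parental arrays. Among bright X-linked ones, 10 of 14 (71.4%) had a hybrid mean within 0.25 of the C57Bl/6 mean on the linear axis between the parents. On the autosomes 113 of 681 (16.6%) did. Near the midpoint lay 1 of the 14 and 505 of the 681 (74.2%). With dim probe sets included, 10 of 18 X-linked ones (55.6%) lay near C57Bl/6 and 5 (27.8%) near the midpoint, against 125 (16.4%) and 550 (72.1%) of 763 on the autosomes. The 3 X-linked exceptions near C3H were Bex1, Mid1 and Timp1, none of them called off the midparent. The 14 probe sets belong to 11 genes, and the shares were not tested.

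**Figure D2:**
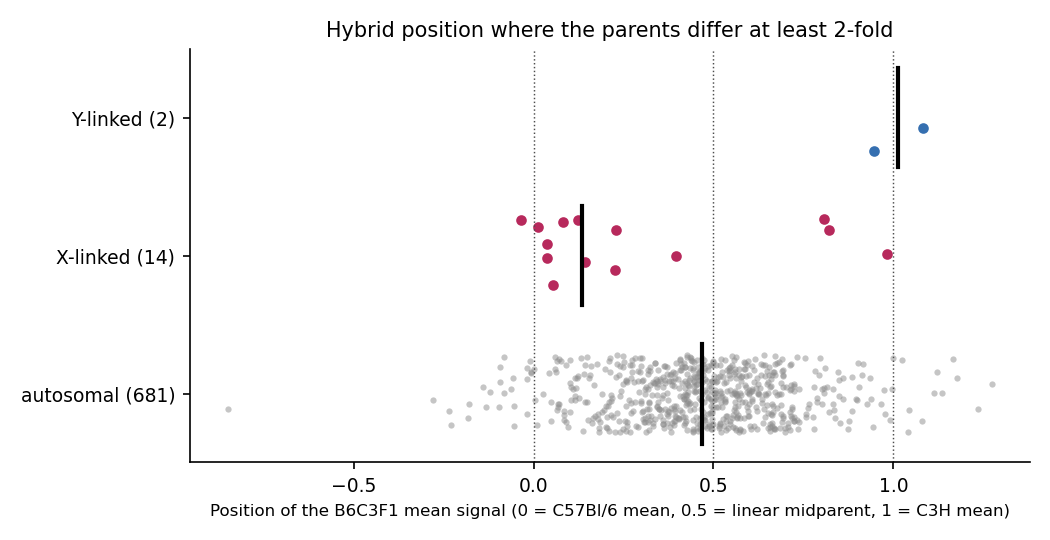
Position of the hybrid mean signal between the parental means (x axis, linear signals, 0 at C57Bl/6 and 1 at C3H). Shown are bright probe sets whose parents differ at least 2-fold and whose parental arrays do not overlap. Points are probe sets, scattered vertically, and bars are medians. The 14 X-linked probe sets gather near C57Bl/6, the 2 Y-linked ones lie at C3H, and the 681 autosomal ones about the midpoint.

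Chm encodes Rab escort protein, which brings Rab GTPases to the enzyme that attaches their lipid anchor. One of its probe sets read 985, 984, 1156, 967 and 976 in the hybrid, 953, 810, 802, 1041 and 948 in C57Bl/6, and 2708, 3062, 2892, 2551 and 2763 in C3H. Hybrid and C57Bl/6 arrays overlapped, and both lay below every C3H array. The hybrid was at 54.7% of the linear midparent and fell by 0.65 ± 0.08 on log2 (adjusted p = 0.000171 on log2 and 0.000122 on linear signals). The second Chm probe set gave 924 to 1059 in the hybrid, 769 to 1001 in C57Bl/6 and 1860 to 2355 in C3H, which was 66% of the linear midparent (adjusted p = 0.0142 and 0.0134). Its call ended without B6C3F1 replicate 1, 2, 3 or 4 (adjusted p from 0.0534 to 0.0671).

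Fam122b also lay with C57Bl/6, at 208 to 316 in the hybrid against 130 to 310 and, in C3H, 921 to 1372. This is 38.7% of the linear midparent (log2 difference -0.91 ± 0.17, adjusted p = 0.0109 and 0.00118), and the call ended without B6C3F1 replicate 3 or 4 (adjusted p = 0.0602 to 0.0609). Cd99l2, a cell surface protein of the CD99 family, went the other way. The called probe set read 1430, 938, 926, 943 and 1425 in the hybrid, 850 to 1360 in C57Bl/6 and 60.6 to 139 in C3H. At 189% of the linear midparent and +1.66 ± 0.16 on log2 it was called on both scales (adjusted p = 2.44e-06 and 0.0134), though not without B6C3F1 replicate 1 (adjusted p = 0.0726).

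The other Cd99l2 probe sets did not all show a strain difference. A second set read 314 to 685 in the hybrid, 299 to 709 in C57Bl/6 and 73.5 to 89.9 in C3H, and was called on log2 alone (+1.15 ± 0.18, adjusted p = 0.00196). Another read 2410 to 2892 in the hybrid, 2585 to 2941 in C57Bl/6 and 2765 to 3068 in C3H, so that the 3 groups overlapped (-0.13 ± 0.07, adjusted p = 0.547). Fam199x likewise read 183 to 249 in the hybrid, 161 to 337 in C57Bl/6 and 4.31 to 43.6 in C3H, and was called on log2 (+1.22 ± 0.24, adjusted p = 0.0171) but not on linear signals (adjusted p = 0.261).

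Sh3bgrl, a small thioredoxin-like protein, was the X-linked gene that left both parents. The called probe set read 3344, 3723, 3286, 3638 and 3019 in the hybrid, 1753 to 2693 in C3H and 1759 to 2507 in C57Bl/6. All hybrid arrays lay above all parental ones, at 151% of the linear midparent (+0.60 ± 0.10 on log2, adjusted p = 0.00626 and 0.00538). The other 2 Sh3bgrl probe sets differed by +0.26 ± 0.16 and +0.28 ± 0.10 without a call. Xist, the RNA of X inactivation, read 32.7 to 83.9 in the hybrid and 59.6 to 107 in the parents (-0.33 ± 0.24, not called).

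Eif2s3y, the Y-encoded gamma subunit of a translation initiation factor, read 5937, 5128, 5544, 5405 and 5978 in the hybrid, 5373 to 6064 in C3H and 2449 to 3099 in C57Bl/6. The hybrid lay within the C3H range and above every C57Bl/6 array, at 130% of the linear midparent (+0.47 ± 0.08, adjusted p = 0.00251 and 0.031). The call ended in 9 of 15 leave-outs, all B6C3F1 arrays but replicate 2, all C57Bl/6 arrays but replicate 2, and C3H replicate 2 (adjusted p from 0.0518 to 0.121). Kdm5d, a histone demethylase, read 433 to 621 in the hybrid, 471 to 584 in C3H and 186 to 281 in C57Bl/6, and was called on log2 alone (+0.59 ± 0.12, adjusted p = 0.0236). Both bright Uty probe sets lay as high, at 144% and 142% of the linear midparent, without a call (log2 adjusted p = 0.0678 and 0.0528).

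Many of the calls on both scales had parents that differed. Over all chromosomes 13 of the 23 above and 10 of the 18 below had parents called different, beside 6.83% of all probe sets. The hybrid was called different from C3H in 2.37% and from C57Bl/6 in 1.48% of all probe sets. In 18 of these 23 it was called different from C3H and not from C57Bl/6, 10 above and 8 below the midparent. In 5 it was the reverse, 3 above and 2 below. On the autosomes alone the numbers were 11 and 4 of 15, the rest being 4 X-linked, 1 Y-linked and 3 without a position. A missing call does not show that the hybrid equals that parent.

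Psmd6, a subunit of the regulatory particle of the proteasome, had the largest log2 rise. The called probe set read 4690, 4278, 3897, 4469 and 4013 in the hybrid, 4188, 4915, 5179, 4014 and 5336 in C57Bl/6, and 156, 193, 300, 196 and 174 in C3H. Hybrid and C57Bl/6 arrays overlapped and lay above every C3H array. The hybrid was at 173% of the linear midparent (+2.09 ± 0.11, adjusted p = 2.07e-10 and 0.000122). The second Psmd6 probe set had no called strain difference. It read 4984 to 6064 in the hybrid, 4728 to 5726 in C57Bl/6 and 4279 to 5275 in C3H (+0.12 ± 0.08, adjusted p = 0.624).

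Hsd17b7, a reductase of cholesterol synthesis that also reduces steroid hormones, had 4 probe sets, all above the midparent. The set of the smallest p read 1255, 1601, 1689, 1522 and 1807 in the hybrid, 1524 to 1662 in C57Bl/6 and 126 to 250 in C3H, which was 177% of the linear midparent (+1.46 ± 0.12, adjusted p = 1.66e-07 and 0.000122). Another read 498, 611, 505, 578 and 545 in the hybrid, 282 to 398 in C57Bl/6 and 63.6 to 148 in C3H. There all hybrid arrays lay above all arrays of both parents, at 245% of the linear midparent, the highest among those called on both scales (+1.47 ± 0.15, adjusted p = 7.01e-06 and 1.5e-05). A further set was called on log2 alone (+1.20 ± 0.26, adjusted p = 0.0403), and the last was not called (+0.84 ± 0.34).

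Cpxm2, a secreted protein of the carboxypeptidase family, lay by C3H. The called probe set read 3671, 3511, 4281, 4427 and 5052 in the hybrid, 3186 to 4921 in C3H and 759 to 1450 in C57Bl/6. That is 172% of the linear midparent (+1.03 ± 0.12, adjusted p = 6.32e-05 and 0.00218). Its other probe set read 197 to 227 in the hybrid, 131 to 295 in C3H and 58.5 to 119 in C57Bl/6, in the same order without a call (+0.77 ± 0.20, adjusted p = 0.121).

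Rab6b, a small GTPase of Golgi traffic, lay by the low C3H values and gave the largest measured fall. One probe set read 33, 48.1, 8.5, 47 and 4.95 in the hybrid, 13 to 77.2 in C3H and 444 to 596 in C57Bl/6. Hybrid and C3H overlapped near the dim level, and the hybrid was at 9.62% of the linear midparent (-2.19 ± 0.30, adjusted p = 0.000403 and 0.000122). A second was called the same way, at 7.92 to 40.1 against 20.3 to 66.9 in C3H and 132 to 251 in C57Bl/6 (20% of the linear midparent, adjusted p = 0.0141 and 0.0369). Another bright Rab6b set showed no such difference, with means of 244 in the hybrid, 210 in C3H and 267 in C57Bl/6 (+0.07 ± 0.43), and the last, a dim one, was not called (-0.45 ± 0.32). The call of the second Rab6b set ended in 11 of 15 leave-outs, all but C3H replicate 5 and C57Bl/6 replicates 2, 3 and 4 (adjusted p from 0.0518 to 0.13).

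**Figure D3:**
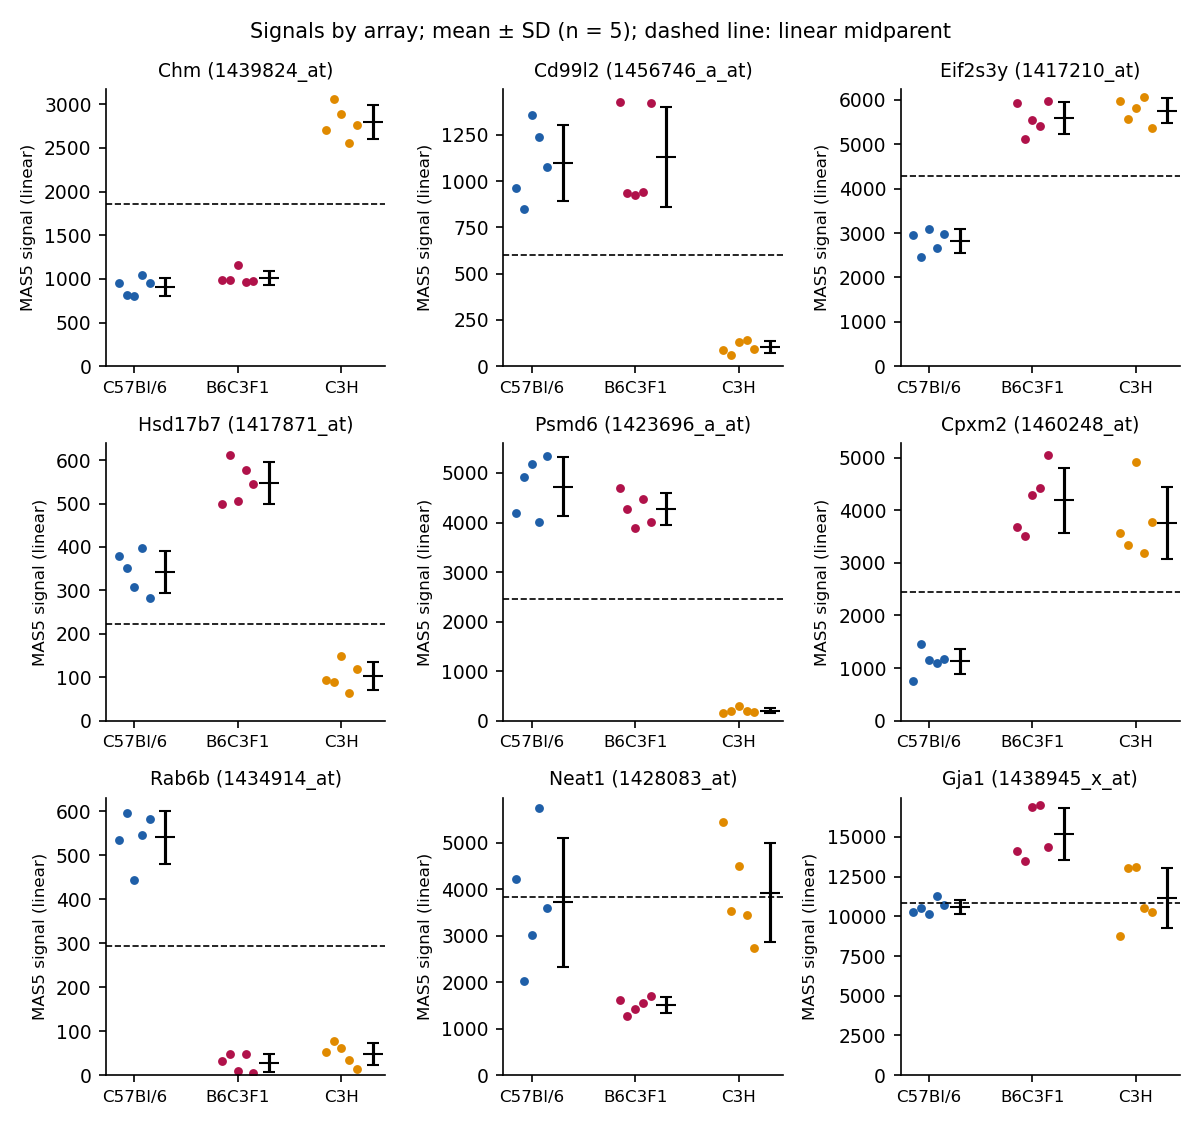
Linear signals of 9 genes by array (points; y axes start at 0), with mean ± SD over 5 arrays beside them and the linear midparent as a dashed line. Chm, Cd99l2 and Psmd6 in the hybrid lie by C57Bl/6, Hsd17b7 above it, Eif2s3y, Cpxm2 and Rab6b by C3H, Neat1 below both parents and Gja1 above both.

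Smaller departures were called in single genes of several kinds. Gsto1, a glutathione transferase, read 5510 to 6669 in the hybrid, 4629 to 6114 in C57Bl/6 and 1965 to 3429 in C3H (153% of the linear midparent, adjusted p = 0.00302 and 0.00271). Akt1, the central kinase of insulin signalling, read 3502 to 4429, 2783 to 4089 and 2201 to 2611 in the same order (139%, adjusted p = 0.00872 and 0.031). Alas1, the first enzyme of heme synthesis, read 904 to 1504, 915 to 1097 and 435 to 605 at the called probe set (150%, adjusted p = 0.00567 and 0.0369). In all of these the hybrid arrays lay above every C3H array and overlapped C57Bl/6. The other Alas1 probe set read 11837 to 14597 in the hybrid against 12678 to 16785 in the parents and was not called (-0.11 ± 0.09). The other bright Akt1 sets, at +0.15 ± 0.12 and -0.41 ± 0.27, were not called. The other Gsto1 set, the brighter one, had means of 10843 in the hybrid, 9164 in C3H and 8711 in C57Bl/6. It was not called (+0.29 ± 0.09), and its parents were not called different.

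Ablim1, an actin-binding protein, and Il17re, an interleukin receptor subunit, were likewise called different from C3H alone, at 135% and 216% of the linear midparent. A brighter Ablim1 set had means of 10425 in the hybrid, 10226 in C3H and 9811 in C57Bl/6. It was not called (+0.06 ± 0.08), and its parents were not called different. The other bright Il17re set was not called either (+0.31 ± 0.21). Rbm45, an RNA-binding protein, read 560 to 776 in the hybrid, 524 to 654 in C3H and 199 to 310 in C57Bl/6, at 153% (adjusted p = 0.00293 and 0.031). Below the midparent and called different from C3H alone were Nme7 of the nucleoside diphosphate kinase family (48.8%), Pxylp1, a phosphatase of glycosaminoglycan synthesis (55.4%), and the poly(A) polymerase Tent5a (61.5%). Another 3 probe sets without a single symbol completed these groups, at 23.9%, 44.4% and 156% of the linear midparent. Apart from Gsto1, these calls ended in several leave-outs: 4 for Pxylp1 (B6C3F1 replicates 1 to 4), 7 for Rbm45, 8 each for Akt1 and Ablim1, 9 each for Il17re and Tent5a, 11 for Alas1 and 12 for Nme7. The highest adjusted p among them was 0.194, for Nme7.

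Another 6 probe sets were called below both parents and 6 above both. All 5 hybrid arrays lay below all 10 parental arrays in 44 probe sets of the whole array (0.0977%) and above them in 48 (0.107%). Among the 41 called on both scales, 6 lay wholly below and 7 wholly above.

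Neat1, the long noncoding RNA that builds nuclear paraspeckles, was also called below both parents. The called probe set read 1606, 1267, 1433, 1553 and 1706 in the hybrid, 5444, 3534, 4494, 3441 and 2725 in C3H, and 4218, 2022, 3015, 5738 and 3598 in C57Bl/6. All hybrid arrays lay below all parental ones, with an SD of 169 against 1056 in C3H and 1389 in C57Bl/6. The hybrid was at 39.6% of the linear midparent (-1.27 ± 0.17, adjusted p = 0.000306 and 0.0231). The call ended without B6C3F1 replicate 1, 2, 3 or 4 (adjusted p from 0.0633 to 0.0753). A second Neat1 probe set read 89.9 to 157 in the hybrid against 55.5 to 199 in the parents (+0.15 ± 0.26).

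Slc35a5, of the nucleotide sugar transporter family, read 4.68 to 20.6 in the hybrid, 55 to 74.2 in C3H and 51.9 to 85.7 in C57Bl/6. All hybrid arrays lay below all parental ones and below the dim level, so that the size of the fall is uncertain. The measured values were at 16.7% of the linear midparent (-1.62 ± 0.26, adjusted p = 0.00273 and 0.0476), and leaving out any single array except C3H replicate 5 ended the call (adjusted p from 0.0529 to 0.155). Sorbs2, an adaptor of the Z-disc, read 98.9 to 144 in the hybrid, 189 to 369 in C3H and 145 to 267 in C57Bl/6 (42.7%, adjusted p = 0.00348 and 0.031). A far brighter Sorbs2 probe set had means of 5654 in the hybrid, 6223 in C3H and 5183 in C57Bl/6. It stood at 99.1% of the linear midparent (-0.01 ± 0.08) and was not called. Ciapin1, of cytosolic iron-sulfur cluster assembly (67.9%), and Kansl3, of a histone acetyltransferase complex (71.6%), were the other named genes below both parents. Single arrays ended the calls of Sorbs2 in 7, Kansl3 in 10 and Ciapin1 in 11 of 15 leave-outs (adjusted p up to 0.118, 0.118 and 0.169).

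Above both parents was Gja1, the main gap junction protein of the ventricle. The called probe set read 14141, 13494, 16895, 17034 and 14380 in the hybrid, 8779, 13034, 13127, 10530 and 10247 in C3H, and 10280, 10500, 10138, 11248 and 10722 in C57Bl/6. All hybrid arrays lay above all parental arrays, at 140% of the linear midparent (+0.49 ± 0.10, adjusted p = 0.0185 and 0.031). The other 5 Gja1 probe sets all pointed the same way, from +0.07 to +0.34, without a call. One of them read 12849 to 15955 in the hybrid and 10125 to 13804 in the parents (+0.32 ± 0.09, adjusted p = 0.142). The call of Gja1 ended without B6C3F1 replicate 1, 3 or 4, C3H replicate 4 or C57Bl/6 replicate 1 or 3 (adjusted p from 0.052 to 0.134).

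AU040320, a membrane protein known as the receptor of adeno-associated virus, read 2649 to 3182 in the hybrid, 1936 to 2156 in C3H and 2128 to 2254 in C57Bl/6. It rose to 139% of the linear midparent (+0.47 ± 0.07, adjusted p = 0.00133 and 0.00452) with all hybrid arrays highest. The call ended with each array centred and without the intensity trend (the adjusted p-values were 0.107 and 0.176). Myct1, an endothelial gene, read 655 to 982 in the hybrid and 356 to 634 in the parents at the called probe set (166%, adjusted p = 0.00872 and 0.0138). Its call ended without B6C3F1 replicate 2 (adjusted p = 0.0626). The brightest Myct1 set, with means of 1119 in the hybrid, 1249 in C3H and 968 in C57Bl/6, showed no such rise (+0.02 ± 0.10). The remaining sets, at +0.15 ± 0.14 and -0.46 ± 0.31, were not called either. Ddo, which breaks down D-aspartate, read 2045 to 2480 against 1462 to 2016 (134%, adjusted p = 0.026 and 0.0485), and its call ended in 11 of 15 leave-outs.

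Retnla, a resistin-like protein of alternatively activated macrophages, read 386, 377, 323, 453 and 378 in the hybrid, 131 to 243 in C3H and 151 to 323 in C57Bl/6. It was at 195% of the linear midparent (+0.95 ± 0.17, adjusted p = 0.0102 and 0.00832), the lowest hybrid array being level with the highest parental one, and the call ended without B6C3F1 replicate 4 (adjusted p = 0.0602). The 12 macrophage markers summed to 19948 to 21568 in the hybrid, 13711 to 22276 in C3H and 14499 to 22172 in C57Bl/6, none at the dim level. Their part in the Retnla result was not tested. In such bulk tissue, a change in the number of cells and a change in RNA per cell cannot be told apart.

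A further 6 called genes had parents that were not called different, and a hybrid called different from a single parent. Above were Pnrc1, a nuclear receptor coactivator (143% of the linear midparent), Pxdn, a peroxidase that crosslinks basement membrane collagen (161%), Sptbn1, a beta spectrin (152%), and Fndc1 of the fibronectin domain family (160%). Below were Ifrd2 (52.1%) and Itpa, which clears inosine triphosphate (66.7%). In Pnrc1 all hybrid arrays, 8252 to 10698, lay above all parental ones, 4585 to 8015. Their calls were lost in 3 leave-outs for Sptbn1 (B6C3F1 replicates 1 to 3), 7 for Ifrd2, 10 for Itpa, 11 each for Pnrc1 and Pxdn, and 14 for Fndc1.

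By function the calls were scattered. Of the gene lists, cholesterol synthesis, insulin and growth factor signalling, ion channels, the proteasome and Y-linked genes each had 1 gene called above on both scales, and splicing and nuclear RNA had 1 below. The other lists had none. Over the whole array 34 of 18190 genes had a call on both scales, in either direction. Whether 1 call in a list exceeds that share was not tested. Of 23 measured genes of cholesterol synthesis only Hsd17b7 was called, and 12 had their brightest probe set above and 11 below the midparent. Among its neighbours in the pathway Dhcr7 (+0.38 ± 0.13) and Fdft1 (-0.23 ± 0.09) were not called. Of 32 proteasome genes only Psmd6 was called, with 17 above and 15 below, a median (+0.01) whose sign turned with centring and without B6C3F1 replicate 2 or 4, among other settings. Psmc5 (-0.32 ± 0.12), Psmd13 (-0.31 ± 0.12) and Psme4 (-0.29 ± 0.10) were not.

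Of 27 insulin and growth factor genes Akt1 was called, and Prkaa2, the catalytic subunit of AMP-activated kinase, was called on log2 alone with the hybrid at 132% of the linear midparent (adjusted p = 0.523 there). Pik3r1 (-0.65 ± 0.17) and Eif4ebp1 (+0.53 ± 0.14) were not called. Of 33 ion channel and gap junction genes Gja1 was called, and the pacemaker channel Hcn2 (+0.82 ± 0.21, adjusted p = 0.122) and Cacna2d1 (+0.34 ± 0.10) were not. Beside Neat1, 2 more of the 27 splicing and nuclear RNA genes were called below on log2 alone. The 27 genes have 122 probe sets, and a gene counted if any of its sets was called. Of all probe sets 0.0910% were called below on log2, a share by probe set and not by gene. Malat1, the noncoding RNA of nuclear speckles, read 368 to 618 in the hybrid, 835 to 1381 in C3H and 528 to 748 in C57Bl/6 (-0.69 ± 0.14, adjusted p = 0.0185). Pnisr read 172 to 234 in the hybrid and 284 to 406 in the parents, with no overlap (-0.59 ± 0.13, adjusted p = 0.039).

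Several lists leaned to a side without a call on both scales. The summaries below take the brightest probe set of each gene above the dim level, for which the median over all 13111 genes was +0.03, with 55.1% above the midparent. Cell cycle genes had a median of +0.33, 20 of 22 above, with Ccnb2 (+1.27 ± 0.41) and Mki67 (+1.04 ± 0.36) not called. By array the list median was 0.26 to 0.65 in the hybrid, -0.19 to 0.46 in C57Bl/6 and -0.48 to -0.15 on 4 C3H arrays, with C3H replicate 5 at 0.81. The hybrid arrays thus overlapped both parents.

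Matrix genes had a median of +0.22, 38 of 50 above, led by Col15a1 (+0.82 ± 0.20), Col4a1 (+0.66 ± 0.17) and Sparc (+0.75 ± 0.20), none of them called. Nid1, a basement membrane linker, was called on linear signals alone, at 288 to 443 in the hybrid against 66.1 to 297 in the parents (192%, adjusted p = 0.031, and 0.0659 on log2). Fibroblast markers had a median of +0.50, 10 of 13 above, and macrophage markers of +0.27, 10 of 12 above. The fibroblast value depended on the probe sets taken: over all 27 bright probe sets of these genes the median was +0.03, and over all 29 it was +0.14. For macrophage markers it was +0.32 over 18 bright sets, and for matrix genes +0.18 over 96. The hybrid arrays gave 0.23 to 0.55 for fibroblast and 0.23 to 0.31 for macrophage markers. Parental arrays ran from -0.65 to 0.44 for fibroblast and from -0.56 to 0.38 for macrophage markers. Several of them reached the hybrid range in each, so that the groups overlapped. Summed fibroblast signals were 75511 to 97850 in the hybrid, 75704 to 92172 in C3H and 74645 to 90047 in C57Bl/6. The part of either cell type in the matrix list was not tested.

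The circadian clock list leaned below, with a median of -0.32 and 17 of 23 genes below. Of its 57 probe sets 35.1% had an unadjusted p under 0.05, beside 10.3% of all probe sets. The share was as high in markers of macrophages (36.8%), endothelium (36.4%) and fibroblasts (34.5%) and in matrix genes (35.4%). Wee1, a cell cycle kinase under clock control, read 389, 607, 456, 600 and 713 in the hybrid, 935 to 1529 in C3H and 513 to 695 in C57Bl/6, and was called on log2 alone (-0.67 ± 0.14, adjusted p = 0.0292, and 0.0864 on linear signals). Dbp, an output factor of the clock, was called on linear signals alone at 33% of the midparent (adjusted p = 0.0393, and 0.172 on log2). Its arrays read 1681 to 4722 in the hybrid, 890 to 7743 in C57Bl/6 and 8912 to 17897 in C3H.

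Arntl, the core activator that peaks opposite to Dbp, read 640 to 909 in the hybrid, 177 to 402 in C3H and 248 to 906 in C57Bl/6, and just missed the threshold (+1.04 ± 0.23, adjusted p = 0.0509). Npas2, its partner, stood at +0.96 ± 0.27, and Per3 (-0.84 ± 0.21), Tef (-0.58 ± 0.15) and Hlf (-0.51 ± 0.14) stood below, none of them called. By array the list median was -0.50 to -0.19 in the hybrid, -0.39 to 0.14 in C57Bl/6 and -0.04 to 0.32 in C3H. The labels give the light cycle but no hour of collection, so that time of day and kind of mouse cannot be told apart.

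**Figure D4:**
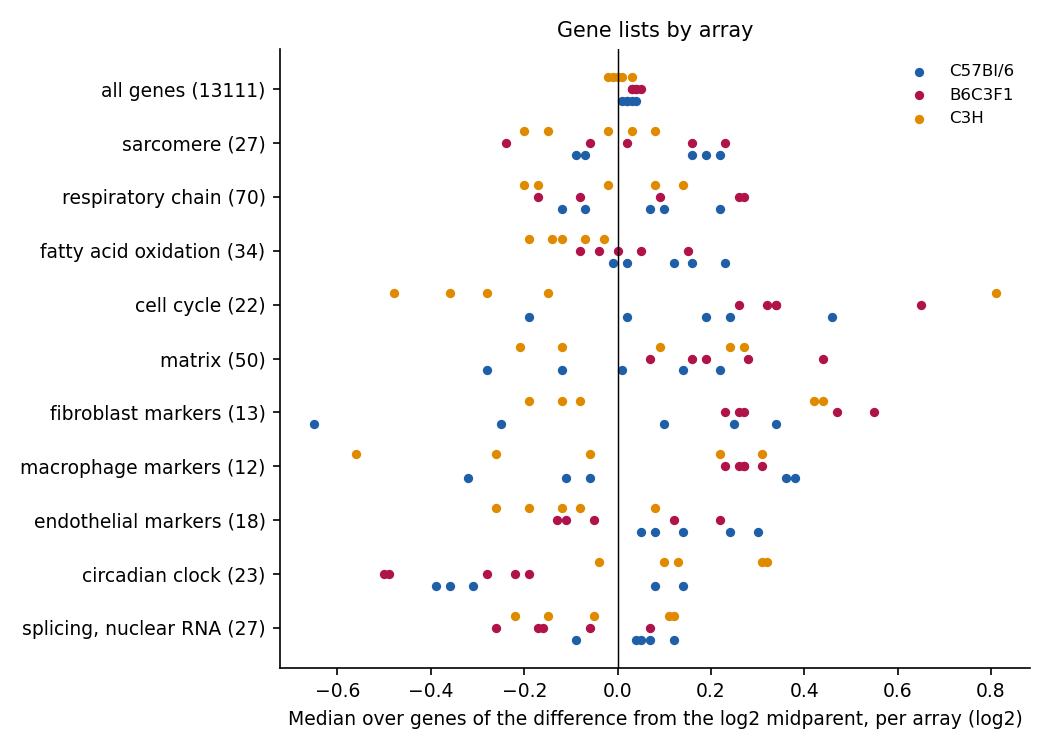
Median difference from the log2 midparent over the genes of a list (x axis, log2), 1 point per array; the number of genes above the dim level is in brackets. Parental arrays centre on 0 by construction. The hybrid arrays lie at 0.26 to 0.65 for cell cycle genes and at -0.50 to -0.19 for clock genes, and overlap parental arrays in both.

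Lists of the contractile apparatus and of energy metabolism had medians close to the midparent in these summaries. The median was +0.03 for 27 sarcomere genes and 0.00 for 34 genes of fatty acid oxidation. It was +0.07 for 70 respiratory chain genes. Of these 56 were above (80%), beside 55.1% of all genes, so that this list leaned above by a small amount. The sign turned with the Gapdh ratio as covariate in each of these lists, and for the sarcomere also with quantile normalization and without B6C3F1 replicate 2 or 3. For fatty acid oxidation it turned under 10 settings in all, centring among them. Sdhc, a subunit of succinate dehydrogenase, was the respiratory gene called on log2 (-0.47 ± 0.09, adjusted p = 0.0199). It read 10814 to 14917 in the hybrid and 15086 to 20757 in the parents, without overlap, and missed the linear threshold (adjusted p = 0.0568). Outside these lists, ribosomal protein genes had a median of +0.10, with 35 of 43 above (81.4%). Splicing and nuclear RNA genes had a median of -0.08, with 20 of 27 below. Imprinted genes expressed from the father (22 measured) and from the mother (20) had no call on either scale.

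Probe sets of the same gene often disagreed. Of the 34 genes with a call on both scales, 28 had further probe sets, 61 in all. Of these 61, 3 were called the same way on both scales (Chm, Hsd17b7 and Rab6b) and 2 on log2 alone (Cd99l2 and Hsd17b7). A further 35 had the same sign without a call, and 21 had the opposite sign. Among the 46 bright ones 29 had the same sign (63%), beside 58.6% of all 16385 pairs of bright probe sets of a gene. Above the 60th percentile the shares were 69.4% and 61.5%. The shares over called genes were thus near those over all genes.

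In 13 of the 28 genes a bright probe set had the opposite sign. Sptbn1 had 4 such among its 5 others, from -0.47 to -0.00, beside the call of +0.64 ± 0.13. Slc35a5 had 2, at +0.17 ± 0.19 and +0.53 ± 0.16. AU040320 (-0.07 ± 0.21) and Myct1 (-0.46 ± 0.31) had 1 each beside their calls. Every bright probe set had the sign of the call, whatever its size, in Hsd17b7, Chm, Cpxm2, Gja1, Gsto1, Sh3bgrl, Fndc1, Kansl3, Psmd6, Pxylp1 and Il17re. The called sets of Gja1, Sh3bgrl, Gsto1, Alas1 and Ciapin1 can match several transcripts by their type, as that of Rps9 can. The same holds for a called set of Hsd17b7 and of Rab6b. No other set of Gja1, Sh3bgrl, Gsto1, Alas1 or Ciapin1 was called on either scale. What the disagreeing probe sets measure, such as other transcript ends, was not tested.

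**Figure D5:**
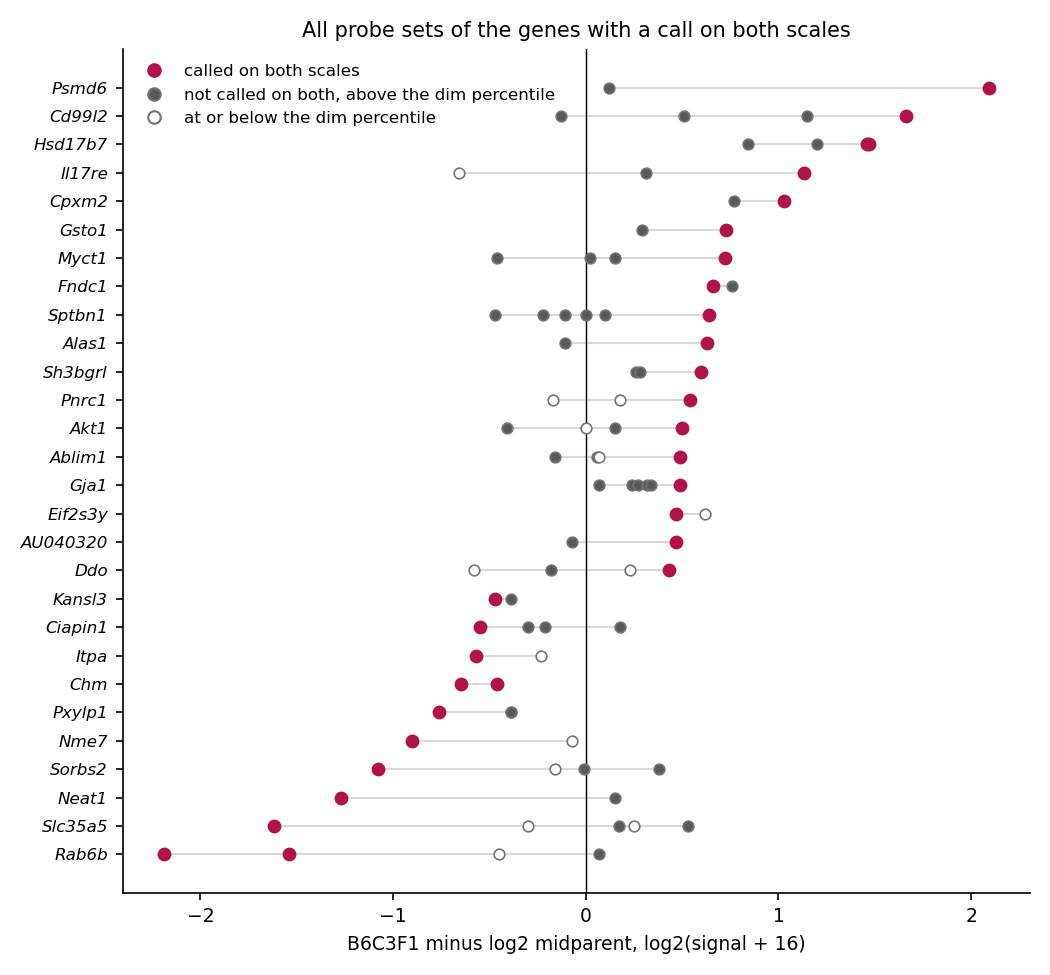
Difference of the hybrid from the log2 midparent (x axis, log2(signal + 16)) for every probe set of the 28 called genes with more than 1; filled coloured points were called on both scales, grey points were not, and open points are at or below the dim level. Chm, Hsd17b7 and Rab6b have 2 coloured points each, and 13 genes have a grey point on the other side of 0.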

How the data were processed

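Whole-genome arrays of 15 hearts were analysed, 5 per kind of mouse. The deposited values are log2 signals made with MAS5, per the submitters' processing notes (version and scaling not given in the sources used here). All members and gene lists were chosen with earlier results of these data known. Signals were taken back to the linear scale. With limma 3.58.1 in R 4.3.3 (lmFit, eBayes with an intensity trend), the contrast of the hybrid with the parental mean was fitted to log2(signal + 16) over all 15 arrays, and again to linear signals divided by the probe set's mean. Benjamini-Hochberg adjustment ran over 45032 probe sets (adjusted p under 0.05). A call on both scales needs both p-values and the same sign. Scripts were tested on simulated data.

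Of the probe sets 34940 had 1 gene symbol, 932 several and 9160 none given; 34736 of the first matched a mouse gene identifier. Named were the 12 largest rises and falls called on both scales, genes with more than 1 such set, up to 4 members by p of each list with such a call, the 3 largest called on a single scale, and Myh6, Myh7, Nppa, Nppb, Actc1 and Xist. Fam199x, Wee1, Arntl, Sdhc, X-linked exceptions, other genes of the lists and further probe sets of named genes were named after their values were seen. The replicate numbers did not pair the arrays: deviations of same-numbered arrays correlated by -0.062 to 0.108, with 1 of 15 pairs over 0.1. Arrays are labelled as separate mice. Alternatives changed the pseudocount, normalization, filters, prior, weights, covariates, block and the arrays left out, 31 in all.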

Additional observations from a re-analysis of the deposited data

Results flagged for a closer look

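In 372 groups of 5 arrays, from 88 probe sets and 36 gene lists, 21 had a lone array far from the other 4 by Dixon's criterion, and chance gives about 1 in 20. On the log2(signal + 16) scale B6C3F1 replicate 3 was highest for Chm at 10.19 (others 9.94 to 9.97), Kansl3 at 10.35 (10.10 to 10.16) and Rbm45 at 9.63 (9.17 to 9.25). In Chm and Kansl3 that array lay nearer the midparent than the other hybrid arrays, and in Rbm45 farther from it. B6C3F1 replicate 1 was highest for Sorbs2 at 7.32 (6.84 to 6.98), and B6C3F1 replicate 4 lowest for Xist at 5.61 (6.37 to 6.64).

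Among C3H arrays, replicate 5 was highest for H2-D1 at 11.89 (11.12 to 11.31), replicate 3 for Kdm5d at 9.23 (8.93 to 9.00) and replicate 1 for Pnisr at 8.72 (8.23 to 8.36). Among C57Bl/6 arrays, replicate 2 was lowest for Ifrd2 at 8.10 (9.14 to 9.40), replicate 5 for Prkaa2 at 8.27 (9.36 to 9.66) and replicate 3 for Wee1 at 9.05 (9.36 to 9.47). Replicate 3 was highest for Msmo1 at 4.84 (4.22 to 4.35), and replicate 4 for Uty at 8.40 (7.85 to 7.96).

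List medians, as log2 differences from the midparent, stood apart for cell cycle genes in B6C3F1 replicate 5 at 0.65 (0.26 to 0.34) and C3H replicate 5 at 0.81 (-0.48 to -0.15). They did so for interferon genes in B6C3F1 replicate 3 at 0.17 (-0.01 to 0.02), and for proteasome genes in C3H replicate 5 at 0.04 (-0.09 to -0.07). C57Bl/6 replicate 2 stood apart for ribosomal proteins at 0.18 (-0.10 to -0.03), and C57Bl/6 replicate 5 for smooth muscle and pericyte markers at 0.18 (-0.01 to 0.03). Heart transcription factors stood apart in B6C3F1 replicate 4 at 0.03 (-0.03 to -0.02) and C3H replicate 5 at -0.14 (0.01 to 0.06).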

How the results depend on the processing

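No called direction reversed in any alternative run for the named probe sets. Counts moved more. On log2, 141 calls became 74 with the brightest probe set of each gene, which tests fewer sets, 52 without a trend, and 84 to 289 with an array left out. On linear signals, 44 became 16 with each array centred, 7 without a trend, 71 with the replicate block, 70 with array weights, 19 with the poly-A control as covariate, and 16 to 200 with an array left out. On both scales, 41 became 14, 7, 64 (replicate block) and 19 (poly-A), and 15 to 162 with an array left out. The replicate block gave 181 on log2 and kept 40 of the 41 calls on both scales, though the numbers did not pair the arrays. The cause of these moves was not tested.

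The linear position of 0.5 became 0.47 with an 8-fold minimum, 0.48 with pseudocount 1, pseudocount 64 or centring, and 0.47 to 0.5 with an array left out. The log2 position of 0.72 became 0.62 with a 2-fold and 0.74 with an 8-fold minimum, and 0.7 with pseudocount 1. The number of arrays, 5 a group, limits the precision of every value.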
